A study of Rattus norvegicus with 12 samples.

Results

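The transcripts described here are those of 5 rat cytochrome P450 genes of the Cyp3a subfamily: Cyp3a23-3a1, Cyp3a2, Cyp3a9, Cyp3a18 and Cyp3a62. They were found by the RefSeq transcript each array probe was designed against, which gave 6 probes for the 5 genes, of 45598 probes on the array and of 20372 genes or transcripts that could be tested. Cyp3a23-3a1 had 2 probes and the other genes had 1 each. Levels were measured in primary rat hepatocytes, cryopreserved cells from male animals of the Sprague Dawley strain, which spent 24 h in culture before a 24 h exposure. The 4 groups, with 3 arrays each, received triclosan at 30 µM, diclosan at 30 µM, 1-chloro-3-(4-chlorophenoxy) benzene (CCPB) at 30 µM, or the vehicle control DMSO. Triclosan, an antibacterial diphenyl ether, bears a phenolic hydroxyl and 3 chlorine atoms. In diclosan the hydroxyl is kept and 1 chlorine is missing. CCPB lacks the hydroxyl, has 2 chlorine atoms, and holds 1 of them in the meta position to the ether bridge where diclosan has it in para. The design text describes 3 independent experiments per condition but names no animal or cell lot, so the p-values below measure the spread between these experiments, which may share a cell preparation.

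CYP3A enzymes sit in the endoplasmic reticulum of hepatocytes and enterocytes, oxidise steroids, bile acids and a large share of drugs, and receive their electrons from the reductase encoded by Por. Their genes are the textbook targets of the pregnane X receptor PXR (Nr1i2), a nuclear receptor with a wide binding pocket. On binding a foreign chemical PXR pairs with the retinoid X receptor RXR and attaches to repeated AGNTCA hexamers before the target gene. The related receptor CAR (Nr1i3) binds overlapping elements and favours Cyp2b genes, and the corepressor SHP (Nr0b2) can restrain both receptors. Each rat member has its own pattern in liver. Cyp3a23-3a1, long called Cyp3a1, is the form raised by dexamethasone and pregnenolone carbonitrile, Cyp3a2 and Cyp3a18 are higher in males, Cyp3a9 is higher in females, and Cyp3a62 is found in intestine as well as liver.

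The arrays lay on 2 slides. Slide 1 carried the triclosan arrays, diclosan replicates 1 and 2 and the DMSO arrays, and slide 2 carried diclosan replicate 3 and the CCPB arrays. A level is the log2 of the background-subtracted spot signal minus the 75th percentile of the array, so that a probe at that percentile has level 0. Between 51.7% and 55.6% of probes were well above background on an array. All 6 Cyp3a probes were well above background on all 12 arrays and passed the filter on dim probes, and no spot was saturated. The labelled cell type was checked against its markers. All 10 hepatocyte markers, among them Alb, Apoa1 and Ttr, were above background on all 12 arrays, with summed signals of 2179 to 2289 times the 75th percentile with triclosan, 2160 to 2250 with diclosan, 2286 to 2341 with CCPB and 2232 to 2325 with DMSO.

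The promoters are shown first. Cyp3a23-3a1 and Cyp3a2 carry nearly the same receptor element, and whether it bears on their values with CCPB was not tested. The sequences are from RefSeq, build GRCr8, all on chromosome 12, read 5′ to 3′ in the direction of the gene, and each covers bases -250 to -31 before the annotated start (220 bases). The windows are chr12:14398834-14399053 on the minus strand for Cyp3a23-3a1, chr12:14343888-14344107 on the minus strand for Cyp3a2, chr12:21960191-21960410 on the minus strand for Cyp3a9, chr12:13994062-13994281 on the plus strand for Cyp3a18 and chr12:21511513-21511732 on the plus strand for Cyp3a62. Capitals mark the DR3 matches and the single AGTTCA and AGGTCA hexamers, on either strand.
Cyp3a23-3a1: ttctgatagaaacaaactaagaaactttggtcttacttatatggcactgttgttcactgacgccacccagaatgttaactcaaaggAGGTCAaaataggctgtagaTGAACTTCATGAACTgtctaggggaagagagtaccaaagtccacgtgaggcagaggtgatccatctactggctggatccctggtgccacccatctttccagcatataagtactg
Cyp3a2: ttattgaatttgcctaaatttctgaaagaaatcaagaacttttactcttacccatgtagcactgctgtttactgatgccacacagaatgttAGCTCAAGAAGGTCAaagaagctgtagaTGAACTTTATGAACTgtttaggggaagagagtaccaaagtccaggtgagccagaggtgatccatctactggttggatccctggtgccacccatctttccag
Cyp3a9: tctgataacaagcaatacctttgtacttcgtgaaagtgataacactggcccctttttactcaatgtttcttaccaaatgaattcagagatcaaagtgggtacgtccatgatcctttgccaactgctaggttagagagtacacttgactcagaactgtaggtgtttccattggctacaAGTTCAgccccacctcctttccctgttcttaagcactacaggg
Cyp3a18: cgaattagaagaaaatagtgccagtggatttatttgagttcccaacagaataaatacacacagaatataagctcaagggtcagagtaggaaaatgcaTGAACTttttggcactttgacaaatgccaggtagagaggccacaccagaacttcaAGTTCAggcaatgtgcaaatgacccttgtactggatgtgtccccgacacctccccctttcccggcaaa
Cyp3a62: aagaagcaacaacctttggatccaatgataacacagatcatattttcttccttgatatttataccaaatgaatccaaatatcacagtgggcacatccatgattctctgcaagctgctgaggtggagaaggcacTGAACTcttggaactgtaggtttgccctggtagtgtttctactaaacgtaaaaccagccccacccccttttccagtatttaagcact

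The PXR and RXR pair is known to bind a DR3, a direct repeat of AGTTCA-like hexamers 3 bases apart, in rat Cyp3a23-3a1 and Cyp3a2. The search took pairs of AGNTCA in the same direction with 3 bases of any kind between them, on both strands of the 250 bases before each start. A match was present in 20 of 33469 RefSeq promoter windows (0.0598%), and Cyp3a23-3a1 and Cyp3a2 were among them. In Cyp3a23-3a1 the match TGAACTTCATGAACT lay at -144 to -130. In Cyp3a2 the match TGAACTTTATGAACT lay at -131 to -117. These 15-base sites differed by 1 substitution, C8T, counted from 1 at the 5′ end of the printed site with the Cyp3a23-3a1 base given first. The narrower form, a pair of AGTTCA with the same spacing, searched after the sequences had been seen, was present in 2 windows (0.00598%), those of Cyp3a23-3a1 and Cyp3a2. Cyp3a2 held a further DR3 match, AGCTCAAGAAGGTCA at -159 to -145, which includes its AGGTCA hexamer.

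No match to the DR3 letters was found in the windows of Cyp3a9, Cyp3a18 or Cyp3a62. Each of the 3 held the single hexamer AGTTCA, which 12.2% of all windows hold: at -73 to -68 in Cyp3a9, at -153 to -148 and -98 to -93 in Cyp3a18, and at -117 to -112 in Cyp3a62. The hexamer AGGTCA, present in 14.1% of windows, was found in Cyp3a23-3a1 (-164 to -159) and Cyp3a2 (-150 to -145). Other known arrangements had no match in any of the 5 windows: DR4, the same pair 4 bases apart (0.0538% of windows), and the everted pairs of TGANCT followed by AGNTCA 6 bases apart (ER6, 0.0329%) or 8 bases apart (ER8, 0.0478%). The windows cover only the bases next to the start, and more distant elements were not analysed here. The promoters of Cyp3a23-3a1 and Cyp3a2 were 79.2% identical over an alignment of 265 positions, those of Cyp3a9 and Cyp3a62 were 64.6% identical, and the other 8 pairs were between 48.9% and 57.2%.

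**Figure D1:**
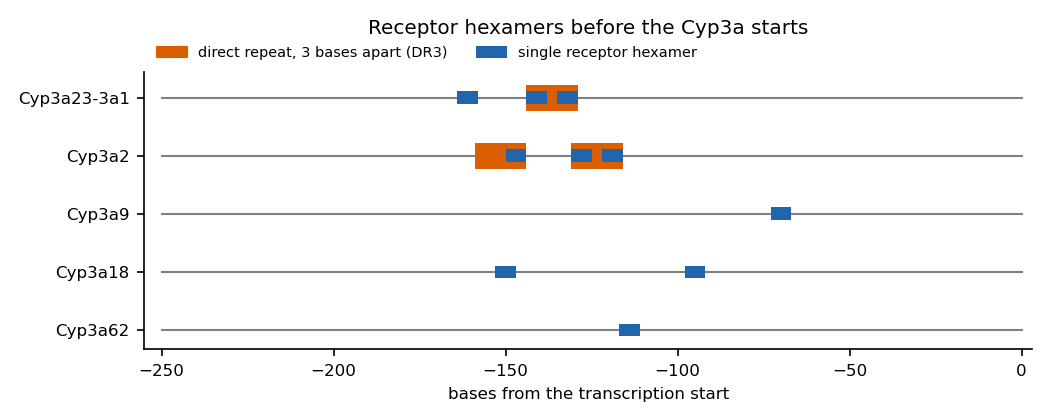
Positions of receptor hexamers in the 250 bases before each Cyp3a start, with the horizontal axis in bases from the transcription start. Wide orange blocks are DR3 matches, present for Cyp3a23-3a1 and Cyp3a2 only, and narrow blue blocks are single AGTTCA or AGGTCA hexamers, of which each of the 5 genes has at least 1.

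The genomic neighbours fall into 2 groups in the RefSeq order of chromosome 12, which lists 8 Cyp3a genes. Cyp3a18, Cyp3a2 and Cyp3a23-3a1 lie in a first cluster together with Cyp3a73, Cyp3a2l1 and Cyp3a71-ps, which were not analysed here. Cyp3a62 and Cyp3a9 follow 110 genes later, with 3 genes between them. Cyp3a23-3a1 and Cyp3a2 are close paralogs, and whether their probes also capture the transcripts of other members was not tested.

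Cyp3a23-3a1, Cyp3a18 and Cyp3a62 rose with CCPB, by 1.40-fold to 1.497-fold over DMSO, while Cyp3a2 and Cyp3a9 did not pass the test. These 3 of 5 genes stand against a background in which 28.2% of all genes tested were called between CCPB and DMSO, 14.2% higher and 14.0% lower, at an adjusted p under 0.05 in limma. None of the 5 passed with triclosan or diclosan against DMSO. In the plot of levels on the 12 arrays, CCPB has the highest group mean for Cyp3a23-3a1, Cyp3a18 and Cyp3a62, but not for Cyp3a2 or Cyp3a9.

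**Figure D2:**
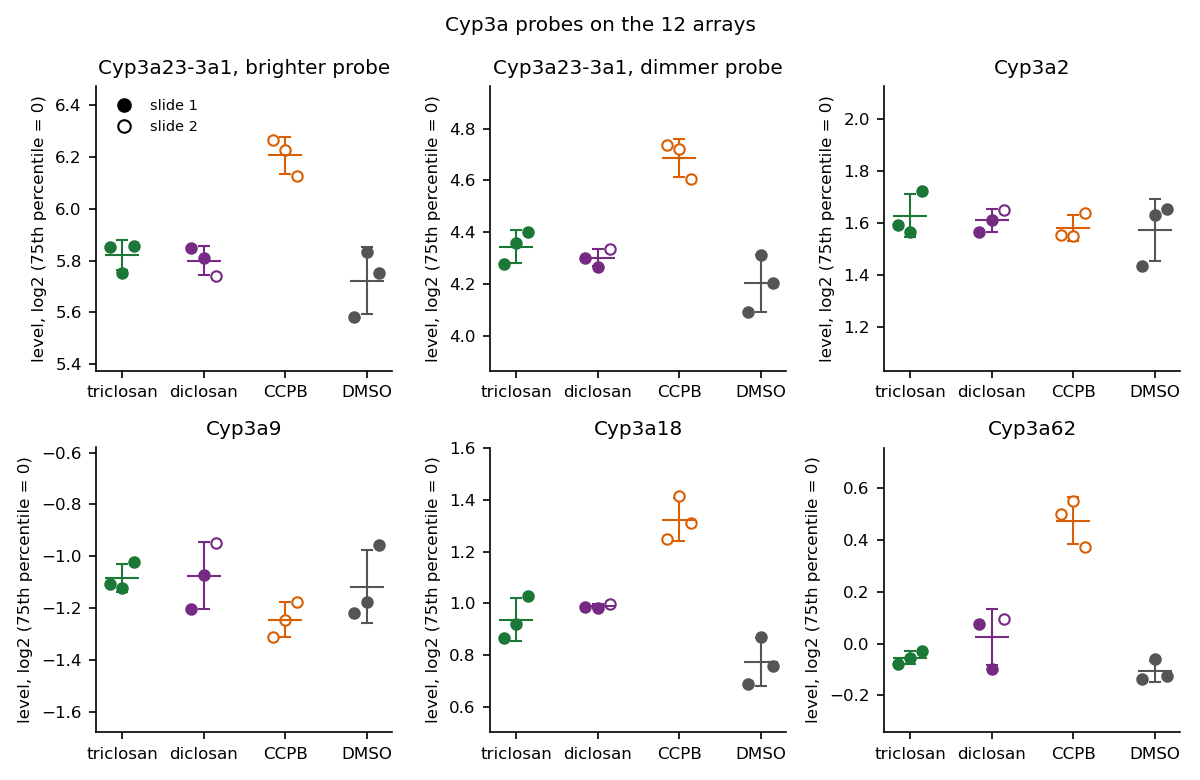
Levels of the 6 Cyp3a probes on each of the 12 arrays, in log2 units with the array's 75th percentile at 0. Points are arrays (filled on slide 1, open on slide 2), horizontal bars are means and vertical bars are SDs of 3 arrays, and all panels span the same range. CCPB has the highest group mean for both Cyp3a23-3a1 probes (6.21 and 4.69), Cyp3a18 (1.32) and Cyp3a62 (0.47), but not for Cyp3a2 (1.58) or Cyp3a9 (-1.24).

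For Cyp3a23-3a1, the form best known for PXR induction, the brighter probe had levels of 6.27, 6.23 and 6.13 on the CCPB arrays, against 5.58, 5.83 and 5.75 on the DMSO arrays. All 3 CCPB arrays lay above all 3 DMSO arrays, as they did for 26.1% of all genes tested. The log2 difference was 0.48 (95% confidence interval 0.34 to 0.63, 1.40-fold, n = 3 each, limma adjusted p = 0.000874). The dimmer probe of the same gene had 4.74, 4.72 and 4.60 with CCPB, against 4.09, 4.31 and 4.20 with DMSO. Its log2 difference was also 0.48 (interval 0.35 to 0.62, limma adjusted p = 0.000556 over all probes), so the 2 probes gave the same size. Triclosan arrays had 5.85, 5.75 and 5.86 and diclosan arrays 5.85, 5.81 and 5.74 on the brighter probe. These 6 values overlapped with those of DMSO, and all 3 triclosan arrays lay below all 3 CCPB arrays, as for 23.3% of all genes. On this probe the groups ran in the order CCPB, triclosan, diclosan and DMSO, with no pair among the last 3 differing beyond its spread. The dimmer probe had the same order. Its difference from DMSO was 0.14 with triclosan (interval 0.0066 to 0.28, limma adjusted p = 0.417) and 0.099 with diclosan (-0.037 to 0.23, 0.605).

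Cyp3a18, a male-predominant steroid hydroxylase of rat liver, had levels of 1.25, 1.41 and 1.31 with CCPB, against 0.69, 0.87 and 0.76 with DMSO. The difference was 0.55 (interval 0.42 to 0.68, 1.46-fold, limma adjusted p = 0.000264). Triclosan arrays had 0.87, 0.92 and 1.03, and diclosan arrays 0.99, 0.98 and 1.00. The group means ran from CCPB (1.32) through diclosan (0.99) and triclosan (0.94) to DMSO (0.77). Both phenolic compounds thus had intermediate means, with the lowest triclosan array at the height of the highest DMSO array and the 3 diclosan arrays above all 3 DMSO arrays, as for 8.70% of all genes.

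Cyp3a62, found in intestine as well as liver, had 0.50, 0.55 and 0.37 with CCPB, against -0.14, -0.060 and -0.13 with DMSO. Its difference was 0.58 (interval 0.45 to 0.72, 1.497-fold, limma adjusted p = 0.000192). Without the slide as a block this was the highest point estimate of the 5 genes, although the 3 intervals overlap. With the slide as a fixed block its estimate, 0.47, was below those of Cyp3a23-3a1 (0.57) and Cyp3a18 (0.54). Triclosan arrays had -0.080, -0.054 and -0.029 and diclosan arrays 0.077, -0.099 and 0.097. These overlapped with DMSO, and all 3 triclosan arrays lay below all 3 CCPB arrays, as for 23.3% of all genes. In order of the mean, CCPB (0.47) was followed by diclosan (0.025), triclosan (-0.054) and DMSO (-0.11), and the last 3 did not differ beyond their spread.

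Cyp3a2, the constitutive male form, had 1.55, 1.55 and 1.64 with CCPB, against 1.44, 1.63 and 1.66 with DMSO. The 3 values of CCPB fell within the range of the DMSO arrays, and the difference was 0.0070 (interval -0.14 to 0.15, limma adjusted p = 0.946). Triclosan gave 1.59, 1.57 and 1.72 and diclosan 1.57, 1.61 and 1.65, so that the 4 group means lay between 1.57 and 1.63 and no order among them exceeded the spread. The upper end of the interval, 0.15, lies below the lower end for each of the 3 genes that rose.

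Cyp3a9, the female-predominant form, had -1.31, -1.24 and -1.18 with CCPB, against -1.22, -1.18 and -0.96 with DMSO. The groups overlapped and the difference was -0.13 (interval -0.31 to 0.054, limma adjusted p = 0.266). Triclosan arrays had -1.11, -1.12 and -1.02 and diclosan arrays -1.20, -1.07 and -0.95. The lowest of the 4 means belonged to CCPB (-1.24), followed by DMSO (-1.12), triclosan (-1.08) and diclosan (-1.07), without a pair that passed the test.

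CCPB shared no slide with DMSO, and with the slide as a fixed block the 3 calls were kept: the difference was 0.57 for Cyp3a23-3a1 (interval 0.30 to 0.84, limma adjusted p = 0.0387), 0.54 for Cyp3a18 (0.28 to 0.79, 0.0396) and 0.47 for Cyp3a62 (0.24 to 0.71, 0.0455), where 3.43% of all genes were called and 1.65% were higher. In that fit Cyp3a2 had -0.056 (-0.32 to 0.21, 0.858) and Cyp3a9 -0.32 (-0.61 to -0.019, 0.247). The block rests on diclosan alone, whose slide 2 array minus the mean of its slide 1 arrays was -0.089 for Cyp3a23-3a1, 0.063 for Cyp3a2, 0.19 for Cyp3a9, 0.012 for Cyp3a18 and 0.11 for Cyp3a62. Blocking the replicate number together with the slide ended all 3 calls, with differences of 0.57 (limma adjusted p = 0.121), 0.57 (0.0608) and 0.43 (0.143) for Cyp3a23-3a1, Cyp3a18 and Cyp3a62. With both blocks 301 of all 20372 genes were called between CCPB and DMSO.

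**Figure D3:**
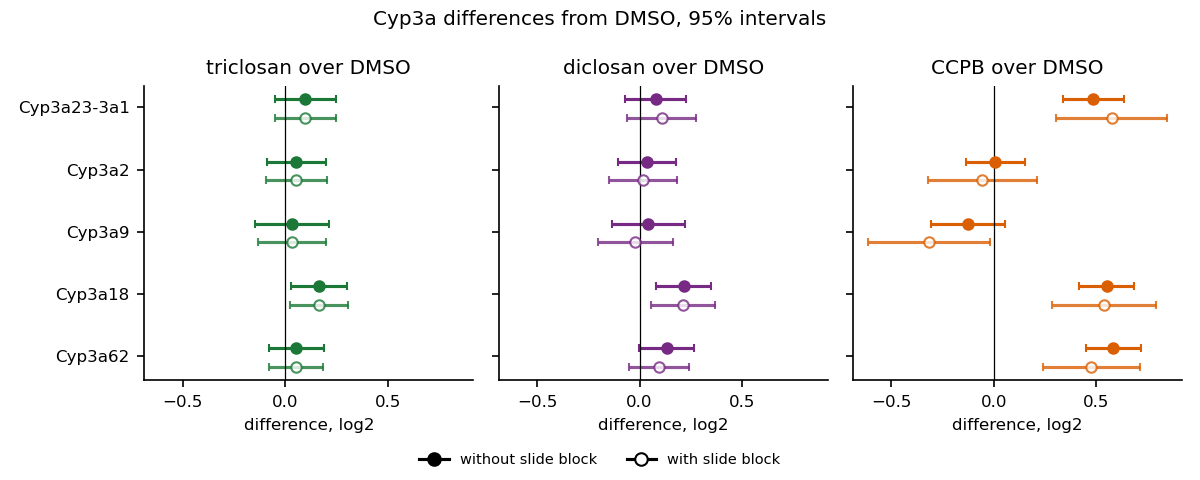
Differences of the 5 Cyp3a genes between each compound and DMSO, in log2 units, with 95% intervals from limma. Filled points are without and open points with the slide as a block; with CCPB, both intervals lie above 0 for Cyp3a23-3a1 (0.48 and 0.57), Cyp3a18 (0.55 and 0.54) and Cyp3a62 (0.58 and 0.47) and hold 0 for Cyp3a2.

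With triclosan 0 of the 5 genes were called against DMSO, where 0.0638% of all genes were called. At an unadjusted p under 0.05 there were 2364 genes in all, and 1 of the 5, Cyp3a18. Cyp3a18 had a difference of 0.16 (interval 0.030 to 0.30, 1.12-fold, limma adjusted p = 0.344). Cyp3a23-3a1 had 0.098 (-0.050 to 0.25, adjusted p = 0.62) and Cyp3a62 had 0.053 (-0.081 to 0.19, adjusted p = 0.796). The intervals of Cyp3a23-3a1, from its brighter probe, and Cyp3a62 hold 0, and that of Cyp3a23-3a1 reaches 1.19-fold. The dimmer Cyp3a23-3a1 probe had 0.14, with an interval above 0 (0.0066 to 0.28, limma unadjusted p = 0.0416, adjusted p = 0.417). Cyp3a2 had 0.054 (-0.089 to 0.20) and Cyp3a9 0.035 (-0.15 to 0.21). All arrays of this comparison lay on slide 1.

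With diclosan 0 of the 5 were called against DMSO, where 0.00982% of all genes were called and 2154, with 1 of the 5, had an unadjusted p under 0.05. Cyp3a18 again had the highest difference of the 5, 0.22 (interval 0.081 to 0.35, 1.16-fold, limma adjusted p = 0.288). The same gene had 0.21 within slide 1 alone, from 2 diclosan and 3 DMSO arrays. Cyp3a62 had 0.13 (-0.0023 to 0.27, adjusted p = 0.483) and Cyp3a23-3a1 had 0.078 (-0.071 to 0.23, adjusted p = 0.718). Cyp3a9 had 0.043 (-0.14 to 0.22) and Cyp3a2 had 0.036 (-0.11 to 0.18). The comparisons of triclosan, diclosan and CCPB with DMSO share the same 3 DMSO arrays, so that a low or high DMSO array moves all of them. DMSO replicate 1 had the lowest DMSO level for all 6 probes.

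The 3 compounds were also set against each other, in 3 pairs at the same dose and time. The hydroxylated triclosan gave lower levels than CCPB, which has no hydroxyl group, for Cyp3a23-3a1, Cyp3a18 and Cyp3a62, where 20.5% of all genes were called and 11.0% were lower. The difference for Cyp3a23-3a1 was -0.39 (interval -0.54 to -0.24, 0.765-fold, limma adjusted p = 0.00467, or 0.00706 over all 3 pairs together). Cyp3a18 had -0.39 (-0.52 to -0.25, 0.00302 and 0.00451) and Cyp3a62 -0.53 (-0.66 to -0.39, 0.000657 and 0.000882). For each of the 3 genes all triclosan arrays lay below all CCPB arrays, as for 23.3% of all genes. Cyp3a2 had 0.047 (-0.096 to 0.19, adjusted p = 0.63) and Cyp3a9 0.16 (-0.019 to 0.34, adjusted p = 0.181). With the slide as a block the 3 differences were -0.48 for Cyp3a23-3a1, -0.37 for Cyp3a18 (adjusted p = 0.160) and -0.42 for Cyp3a62 (0.0973). Cyp3a9 had 0.35 with the block, with an interval above 0 (0.053 to 0.65, limma adjusted p = 0.251). None of the 5 passed, against 1.41% of all genes.

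Diclosan has as many chlorine atoms as CCPB, and the pair differs in the hydroxyl group and in the place of a chlorine atom. Cyp3a23-3a1 was lower with diclosan than with CCPB by a log2 difference of -0.41 (interval -0.56 to -0.26, limma adjusted p = 0.00374, or 0.00556 over the 3 pairs). Cyp3a18 had -0.33 (-0.47 to -0.20, 0.00599 and 0.00879) and Cyp3a62 -0.45 (-0.58 to -0.32, 0.00134 and 0.00207). These 3 of 5 genes compare with 14.3% of all genes called and 6.26% lower. Cyp3a2 had 0.029 (-0.11 to 0.17) and Cyp3a9 0.17 (-0.011 to 0.35), neither past the test. In the fit with the slide block Cyp3a9 had 0.30, with an interval above 0 (0.063 to 0.53, limma adjusted p = 0.153), and was not called. With the slide block Cyp3a23-3a1 (-0.47, adjusted p = 0.0262) and Cyp3a62 (-0.38, 0.0349) still passed, Cyp3a18 (-0.33, 0.0745) did not, and 4.95% of all genes were called. Within slide 2 the diclosan array was lower than the mean of the 3 CCPB arrays by the same amounts, which is what the slide block measures in this pair.

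Between triclosan and diclosan, which differ by 1 chlorine atom, none of the 5 genes passed, nor did any gene on the array (0%), by limma, with 1387 of all genes and 0 of the 5 at an unadjusted p under 0.05. The differences were 0.021 for Cyp3a23-3a1 (interval -0.13 to 0.17), 0.018 for Cyp3a2 (-0.13 to 0.16), -0.0087 for Cyp3a9 (-0.19 to 0.17), -0.051 for Cyp3a18 (-0.19 to 0.083) and -0.079 for Cyp3a62 (-0.21 to 0.056). The intervals bound a difference at 0.862-fold to 1.13-fold over the 5 genes, and a p above the threshold does not show that the compounds act alike. The 2 pairs with CCPB share its 3 arrays with each other and with the comparison of CCPB and DMSO.

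**Figure D4:**
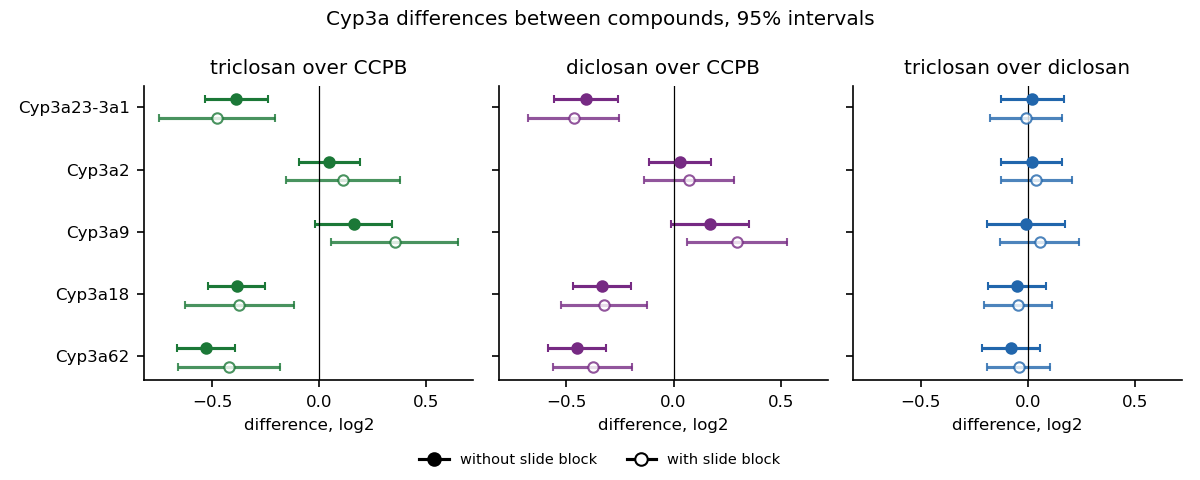
Differences of the 5 Cyp3a genes between compounds, in log2 units, with 95% intervals from limma, without (filled) and with (open) the slide as a block. Triclosan and diclosan lie below CCPB for Cyp3a23-3a1 (-0.39 and -0.41), Cyp3a18 (-0.39 and -0.33) and Cyp3a62 (-0.53 and -0.45), and every interval between triclosan and diclosan holds 0.

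How the members varied together from array to array was described by Pearson's r, with no test. Over the 12 arrays, which include the separate CCPB group, r was 0.92 between Cyp3a23-3a1 and Cyp3a18, 0.93 between Cyp3a23-3a1 and Cyp3a62 and 0.93 between Cyp3a18 and Cyp3a62. Over the 8 arrays of slide 1, where no CCPB array lies, the values were 0.78, 0.60 and 0.69. After each group's mean was taken away they were 0.44, 0.34 and 0.42, lower than over all arrays for each pair. Cyp3a2 had r = 0.055 with Cyp3a23-3a1 over the 12 arrays, but 0.75 on slide 1 and 0.42 within groups, values like those of the 3 pairs above. With Cyp3a18 it had 0.12, 0.57 and 0.55 in the same order, and with Cyp3a9 0.67, 0.74 and 0.74. The points share the array, its scaling and, for CCPB, the slide.

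The named genes whose levels were most like those of Cyp3a23-3a1 over the 12 arrays were Arg1, the last enzyme of the urea cycle (r = 0.98, and 0.89 on slide 1), Glud1, glutamate dehydrogenase (0.98 and 0.93), Pdp2, a pyruvate dehydrogenase phosphatase (0.98 and 0.92), Rassf2 (0.97 and 0.83) and the membrane protease Prss8 (0.97 and 0.90). Of all named genes 1.63% had r over 0.9 with Cyp3a23-3a1. Cyp3a18 was most like the acute phase protein gene Crp (0.98, and 0.96 on slide 1), Tmem176b (0.97 and 0.90) and the triglyceride synthesis enzyme Dgat2 (0.97 and 0.85). Cyp3a62 was most like Etfb, a subunit of the electron transfer flavoprotein (0.97, and 0.72 on slide 1), Secisbp2l (0.97 and 0.61) and Pcsk6 (0.96 and 0.60). Cyp3a2 was most like Vps50 (0.90, and 0.91 on slide 1), the vitamin E carrier Afm (0.87 and 0.95) and Nup42 (0.87 and 0.89), and Cyp3a9 was most like the aldose reductase gene Akr1b1 (0.93 and 0.84), Ptgfr (0.93 and 0.87) and Gstp3 (0.90 and 0.80). For Cyp3a2 0.00935% and for Cyp3a9 0.0187% of named genes had r over 0.9.

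Among the receptors and regulators of Cyp3a transcription, 19 of 21 listed genes could be tested. With CCPB 6 were higher and 2 lower than with DMSO, where 14.2% and 14.0% of all genes were. The median difference of the 19 was 0.11, against 0.0056 over all genes. Nr1i2, the PXR gene itself, had 4.77, 4.82 and 4.76 with CCPB, against 4.48, 4.54 and 4.51 with DMSO. All 3 CCPB arrays were above the DMSO arrays, as for 26.1% of all genes. The difference was 0.27 (interval 0.17 to 0.38, 1.21-fold, limma adjusted p = 0.0027), and 0.39 (0.0238) with the slide block. Triclosan arrays had 4.56, 4.54 and 4.55 and diclosan arrays 4.46, 4.59 and 4.41 for Nr1i2, around the DMSO values. The CAR gene Nr1i3 rose by 0.81 with CCPB (1.75-fold, adjusted p = 0.000199; 0.65 and 0.0493 with the slide block). Of the RXR genes, Rxrb fell by 0.27 (adjusted p = 0.0151; -0.0093 and 0.962 with the slide block) and Rxra had 0.15 (adjusted p = 0.149).

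The corepressor gene Nr0b2 had 0.36, 0.32 and 0.11 with CCPB, against -2.20, -1.76 and -2.00 with DMSO. It was 4.75-fold higher (limma adjusted p = 1.34e-05) in the comparison in which Cyp3a23-3a1, Cyp3a18 and Cyp3a62 rose. Nr0b2 was also the 1 gene of this list called with triclosan (4.27-fold, limma adjusted p = 0.000309), where 0.0638% of all genes were called. It was likewise the 1 called with diclosan (3.48-fold, limma adjusted p = 0.00132), where 0.00982% of all genes were. None of the 5 Cyp3a genes passed with either compound, and a relation between Nr0b2 and the Cyp3a values was not tested. The liver-enriched factor gene Hnf4a (0.15, limma adjusted p = 0.015) and the bile acid receptor gene Nr1h4 (0.15, 0.0238) were higher with CCPB, and Onecut1 fell by 0.43 (0.00295). With the slide block these 3 were not called: Hnf4a had 0.13 (0.341), Nr1h4 0.18 (0.236) and Onecut1 -0.18 (0.367). With the slide block 4 of the 19 were higher (Nr0b2, Nr1i2, Nr1i3 and Cebpb) and 0 lower, where 1.65% and 1.78% of all genes were, and 9 had an unadjusted p under 0.05, as 3674 of all 20372 genes did.

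Genes that supply P450 enzymes with electrons and heme were measured for all 5 listed members. With CCPB 3 were higher and 1 lower than with DMSO (median 0.33), where 14.2% and 14.0% of all genes were. Por, the reductase that feeds every microsomal P450, had 4.10, 4.15 and 4.02 with CCPB, against 3.62, 3.73 and 3.70 with DMSO. All 3 CCPB arrays lay above the DMSO arrays, as for 26.1% of all genes. The difference was 0.40 (1.32-fold, limma adjusted p = 0.00297), and 0.66 (0.00705) with the slide block. Alas1, the first enzyme of heme synthesis, rose by 0.35 (adjusted p = 0.000368; 0.45 and 0.00832 with the slide block). Cyb5a, cytochrome b5, rose by 0.33 (0.00268) without the block and had 0.15 (0.327) with it, and Cyb5b fell by 0.17 (0.0451) and had -0.24 (0.243) with the block. With triclosan and with diclosan limma called 0 of these genes, against 0.0638% and 0.00982% of all genes. At an unadjusted p under 0.05 there were 0, against 11.6% and 10.6% of all genes.

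Other genes known to respond to PXR or CAR were tested for 21 of 24 listed members. With CCPB 12 were higher and 2 lower than with DMSO (median difference 0.26), where 14.2% and 14.0% of all genes were. With the slide block 4 were higher and 2 lower (median 0.20), against the same 1.65% and 1.78% of all genes. The 4 with the smallest p were Gsta3, a glutathione transferase (0.55, limma adjusted p = 1.81e-05), the P450 genes Cyp2c6v1 (0.92, 1.91e-05) and Cyp2c7 (0.51, 7.78e-05), and Cyp2b2, the classic CAR target (1.83, 8.7e-05). Cyp2b2 had 0.79, 0.78 and 0.64 with CCPB, against -0.97, -1.03 and -1.28 with DMSO. Without the slide block its 3.56-fold difference was larger than that of any Cyp3a gene, whose intervals ended at or below 1.64-fold. With the slide block Cyp2b2 had a log2 difference of 1.98, and the intervals of the Cyp3a genes ended at or below 0.845, that of Cyp3a23-3a1. Gsta3 was called with triclosan as well (0.25, adjusted p = 0.0493), and limma called 0 of the 21 with diclosan, where 6 of them and 10.6% of all genes had an unadjusted p under 0.05. The counts on these 3 lists describe their members beside the background of 28.2% and were not tested as sets.

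**Figure D5:**
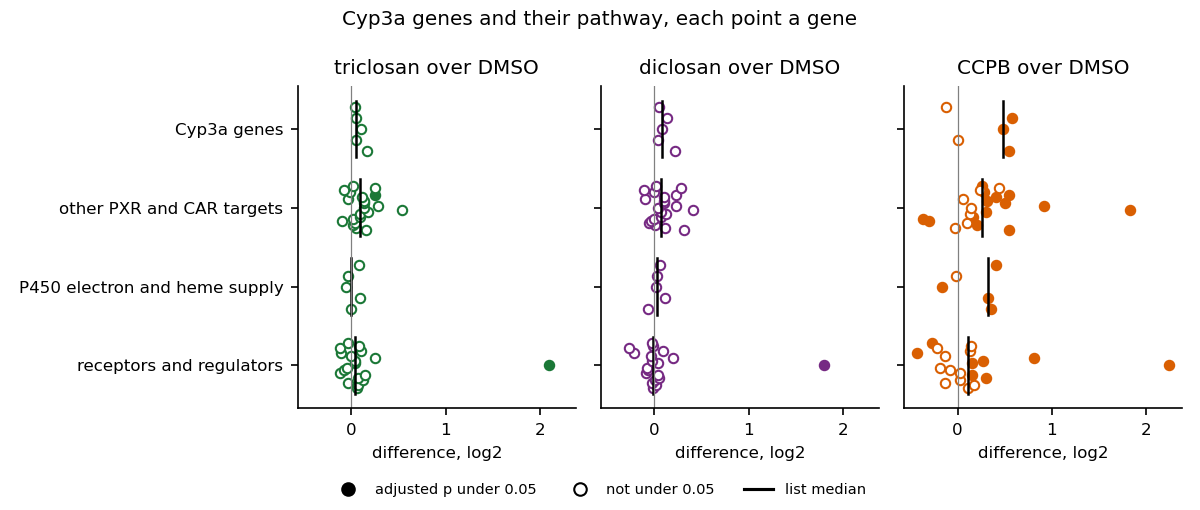
Differences from DMSO, in log2 units, of the 5 Cyp3a genes and of the genes on 3 related lists, with each point a gene and filled points those with an adjusted p under 0.05 in limma. Vertical lines are list medians, which with CCPB are 0.48 for the Cyp3a genes, 0.26 for other PXR and CAR targets, 0.33 for electron and heme supply and 0.11 for receptors and regulators, and the outlying regulator in each panel is Nr0b2.

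Because Cyp3a2, Cyp3a18 and Cyp3a9 differ between the sexes in rat liver, other genes with a sex pattern were counted. Of 8 measured, 2 were higher with CCPB than with DMSO and 2 lower, where 14.2% and 14.0% of all genes were. With the slide block limma called 0 of the 8, against 3.43% of all genes, and 2 had an unadjusted p under 0.05, against 3674 of 20372. The estimates kept their direction: Hsd3b5 had 0.63 without and 0.55 with the block (adjusted p = 0.0553 with it), Sult1e1 0.54 and 0.48 (0.293), Hao2 -0.18 and -0.15 (0.350) and Cyp2c11 -0.23 and -0.13 (0.573). Of the 10 hepatocyte markers, 3 were higher with CCPB than with DMSO and 1 lower, against the same 14.2% and 14.0% of all genes. With the slide block 1 was higher and 0 lower, against 1.65% and 1.78% of all genes. Markers of other liver cells were also set beside the Cyp3a result, against the same 14.2% and 14.0% of all genes called without the block. For cholangiocytes, 3 of 6 markers could be tested and 2 were higher with CCPB, Epcam by 0.33 (limma adjusted p = 0.00945) and Sox9 by 0.28 (0.0205). Their summed signal was 2.78 to 3.24 times the 75th percentile with triclosan, 2.79 to 3.05 with diclosan, 3.51 to 3.57 with CCPB and 2.78 to 2.97 with DMSO, and Krt19, Spp1 and Cftr were removed as dim. Stellate cell markers (5 of 8 tested) had 1 gene higher with CCPB, Acta2 by 0.42 (limma adjusted p = 0.0349). Limma called 0 macrophage (4 of 9 tested) and 0 endothelial markers (3 of 6). Of these, 1 and 2 had an unadjusted p under 0.05, as 41.2% of all genes did. With the slide block limma called 0 markers of these 4 cell types, against 3.43% of all genes. Of these markers 1, an endothelial one, had an unadjusted p under 0.05, against 3674 of 20372 genes. The differences stayed above 0 for Epcam (0.24, limma adjusted p = 0.380), Sox9 (0.20, 0.493) and Acta2 (0.29, 0.571). Summed signals with CCPB and DMSO were 1.91 to 1.98 and 1.83 to 2.49 for stellate cells, 0.93 to 1.05 and 0.719 to 0.997 for macrophages, and 0.34 to 0.41 and 0.295 to 0.33 for endothelial cells. The part of these cells in the Cyp3a values was not tested, and in bulk RNA fewer cells of a type and less RNA per cell cannot be told apart.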

How the data were processed

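Cyp3a transcripts were measured on 12 one-colour Agilent arrays, 3 per group, grouped by the sample labels. The deposited scanner files hold, per the file headers, spot intensity from Agilent Feature Extraction 10.7.1.1, background-subtracted and detrended by the authors without scaling between arrays, with flags for spot quality. Flags (other units, as deposited) removed non-uniform spots (1 to 8 per array) and population outliers (272 to 363). The deposited value table, a signal that the authors scaled to the 75th percentile of an array, had a lowest correlation of 0.999999 with the scanner values over the 12 arrays and was an alternative. Detrending may alter differences between dim spots, which was not tested here, and percentile scaling assumes that most bright transcripts keep their level.

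Log2 values of repeated spots were averaged per probe, and the 75th percentile of the array was subtracted. Probes were kept if the 3 arrays of some group all had them well above background, and the brightest kept probe stood for a gene (20372 genes or transcripts). Accessions were matched to RefSeq symbols, which named 21229 of 45598 probes. Columns of other samples numbered 0. All 12 arrays were fitted by group with limma 3.58.1 in R 4.3.3, two-sided, with Benjamini-Hochberg adjustment over all genes in each of 6 comparisons, and the script was tested on simulated data. Promoters were searched with Python 3.11.15 and aligned with Biopython 1.88. The number of arrays limits the precision: 95% intervals of log2 differences reached 0.145 to each side at the median.

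The members and the lists of regulators, electron supply, PXR and CAR targets, sex-patterned genes and markers were chosen with earlier results of these data known. Named genes were the 5 members, the 5 genes most alike to Cyp3a23-3a1 and the 3 most alike to each other member by Pearson's r, measured genes of the regulator and electron supply lists (not all are reported here), and the 4 smallest p values among PXR and CAR targets. Alternatives were the slide and the replicate number as blocks, single slides, normalization, background correction, probe filters and choice, the arrays in the fit, the adjustment and leaving out each array. Normexp used the median spot signal. The dimmer Cyp3a23-3a1 probe and slide 2 alone were added after the data were seen.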

Additional observations from a re-analysis of the deposited data

How the results depend on the processing

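Under the alternatives, 580 of 626 values of single Cyp3a genes kept their direction and side of the threshold, and the number of called Cyp3a genes was identical in 116 cases and changed in 8. From 3 it became 0 for triclosan over CCPB with the slide block, and for triclosan and diclosan over CCPB and for CCPB over DMSO when the replicate number and the slide were blocked together. With both blocks limma called 12, 568 and 301 of all 20372 genes in these 3 comparisons, in the same order. The number of called Cyp3a genes became 2 for diclosan over CCPB with the slide block and 4 for triclosan and diclosan over CCPB under the replicate block. The 0 for diclosan over CCPB on slide 2 says nothing about the Cyp3a genes, since limma on 1 array against 3 called 0 of 20372 genes (3463 at an unadjusted p under 0.05). Leaving out any array kept 3 calls in each comparison with CCPB and 0 in the others. The replicate block alone kept all 3 calls over DMSO and called Cyp3a9 as well in diclosan over CCPB (0.17, limma adjusted p = 0.0451) and triclosan over CCPB (0.16, 0.0448). Over all genes tested, deviations of same-numbered arrays had correlations between -0.16 and 0.12 (1 of 18 over 0.1). Those of differently numbered arrays lay between -0.17 and 0.17 (7 of 36 over 0.1). Pairing in the Cyp3a genes themselves was not tested.

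Sign changes, all in values that never passed, were -0.056 for Cyp3a2 in CCPB over DMSO with the slide block and -0.021 with median centring. In diclosan over DMSO, Cyp3a9 had -0.020 with the slide block or on slide 1. In triclosan over diclosan, Cyp3a23-3a1 had -0.0090 and Cyp3a9 0.055 with the slide block or on slide 1, and Cyp3a9 had 0.0082 with normexp. With replicate and slide blocks together Cyp3a2 had -0.0072 in diclosan over CCPB, -0.0076 in triclosan over CCPB and -0.00037 in triclosan over diclosan, where Cyp3a23-3a1 had -0.0064 and Cyp3a9 0.0065. Leaving out 1 array gave Cyp3a2 -0.062 to 0.048 in CCPB over DMSO, -0.015 to 0.096 in triclosan over DMSO, -0.033 to 0.078 in diclosan over DMSO, -0.00011 to 0.078 in triclosan over CCPB and -0.030 to 0.048 in triclosan over diclosan. It gave Cyp3a9 -0.016 to 0.11, -0.020 to 0.12 and -0.074 to 0.055 in triclosan over DMSO, diclosan over DMSO and triclosan over diclosan, and Cyp3a23-3a1 -0.0090 to 0.055 in the last. The cause of these changes was not tested.

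Counts over all genes moved more. CCPB over DMSO had 5744 calls, and 699 with the slide block, 301 with both blocks, 3310 with median centring, 2804 with no filter, 3717 adjusted over all comparisons and 3658 to 3999 without an array. Triclosan over CCPB had 4176 (1933 higher and 2243 lower), then 287, 12, 2375 (847 and 1528), 1399 and 2105 to 2889, the adjustment left out. Diclosan over CCPB had 2915, then 1008, 568, 1370 and 1269, with 1237 from the arrays of these groups alone, 0 on slide 2 and 1651 to 5443 without an array. Triclosan over DMSO had 13 (9 higher and 4 lower), and between 0 (its own arrays only) and 377 (adjusted over all comparisons), with 51 under the slide block, 26 under the replicate block, 2 higher and 0 lower with median centring, 29 with quantile normalization, 20 with normexp, 1 on slide 1 or with no filter, 33 with probes above background on all arrays and 5 to 6 without an array. Diclosan over DMSO had 2, both higher, against 2 higher and 1 lower with quantile normalization, 6 under the replicate block, 9 with normexp, 10 with probes above background on all arrays, 304 adjusted over all comparisons, 0 on slide 1, with both blocks or with its own arrays, and 1 to 3 without an array. Triclosan over diclosan had 0, and 1 under the slide block, 151 adjusted over all comparisons and 0 to 2 without an array. The 3 arrays per group and the slide layout limit all of these.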
